A study of Mus musculus with 12 samples.

Results

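The sterol and fatty acid synthesis genes described here were 29 genes: the enzymes that build cholesterol from acetyl-CoA, the proteins that sense sterol and switch these enzymes on, and the enzymes that make and desaturate fatty acids. They were chosen by name, each through the probe set (the group of short oligonucleotides that measures a transcript) annotated to that gene alone, and where a gene had several, through the probe set with the highest mean over the 12 arrays. A probe set of this kind was found for 28 of the 29 genes, out of 18193 genes with such a probe set in the whole series. Acat2, the thiolase of the first step, had none and has no value here. All 28 passed the filter on dim values (a log2 value over 4 on 3 or more arrays).

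The arrays measured RNA of cultured cerebellar granule cells of lethargic mice. These mice are Cacnb4 mutants, and Cacnb4 encodes an auxiliary (β4) subunit of neuronal calcium channels. The 4 groups of 3 arrays each were cultures given the β4a splice variant, cultures given β4b, cultures given β4e, and control cultures given eGFP, a green fluorescent protein. All 4 groups, controls included, were lethargic cells of the 129/SvJ background, so no array shows granule cells with an intact Cacnb4. Cells were taken at postnatal day 7, exposed to lentiviral constructs (βA-β4a, βA-β4b, βA-β4e or βA-eGFP in the labels) for 12 hours right after plating, treated with Ara-C against dividing non-neuronal cells 24 h after plating, and kept for 9 days in vitro before RNA extraction. The titles number the replicates 1 to 3 in every group. The labels do not say whether replicates were separate cultures, so the p-values measure the spread between these arrays, which may be technical.

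Cells make cholesterol by joining acetyl-CoA units into mevalonate, then isoprenoid diphosphates, then squalene, which is closed to lanosterol and trimmed to cholesterol. SREBP2, the product of Srebf2, drives these genes, and SREBP1, the product of Srebf1, drives mainly those of fatty acid synthesis; when sterol is plentiful, Insig proteins hold SCAP and its SREBP cargo in the endoplasmic reticulum. In brain, cholesterol is made locally, by astrocytes and myelinating oligodendrocytes as well as by neurons.

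Promoters of 5 of the genes described below are shown because SREBP target genes are known to carry sterol response elements (SRE) together with CCAAT boxes, which bind NF-Y. The sequences are the 250 bases before the RefSeq start on the gene's own strand, 5′ to 3′, in the GRCm38.p6 build, and capitals mark every match on either strand to 3 motifs. The SRE was searched as TCACNCCA and the E-box as CACGTG. The third motif was the CCAAT box, which appears as ATTGG where it lies on the opposite strand. They are Hmgcs1 at chr13:119690101-119690350 on the plus strand, Idi1 at chr13:8885356-8885605 on the plus strand, Cyp51 at chr5:4104698-4104947 on the minus strand, Msmo1 at chr8:64733579-64733828 on the minus strand, and Insig1 at chr5:28071162-28071411 on the plus strand.
Hmgcs1: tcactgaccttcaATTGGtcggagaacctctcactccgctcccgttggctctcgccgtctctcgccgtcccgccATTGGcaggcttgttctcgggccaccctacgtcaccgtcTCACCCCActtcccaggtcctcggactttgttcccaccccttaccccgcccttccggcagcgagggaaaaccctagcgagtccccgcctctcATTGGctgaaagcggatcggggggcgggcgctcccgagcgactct
Idi1: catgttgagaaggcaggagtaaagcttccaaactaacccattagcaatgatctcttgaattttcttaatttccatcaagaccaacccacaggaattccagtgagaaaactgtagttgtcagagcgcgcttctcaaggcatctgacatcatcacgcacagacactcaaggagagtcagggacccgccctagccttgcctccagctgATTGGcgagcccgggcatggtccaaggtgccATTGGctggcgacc
Cyp51: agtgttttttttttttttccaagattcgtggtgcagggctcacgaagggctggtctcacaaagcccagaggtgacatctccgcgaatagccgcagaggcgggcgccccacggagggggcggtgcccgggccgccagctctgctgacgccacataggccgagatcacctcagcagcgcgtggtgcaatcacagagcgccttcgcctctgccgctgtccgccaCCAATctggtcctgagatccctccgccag
Msmo1: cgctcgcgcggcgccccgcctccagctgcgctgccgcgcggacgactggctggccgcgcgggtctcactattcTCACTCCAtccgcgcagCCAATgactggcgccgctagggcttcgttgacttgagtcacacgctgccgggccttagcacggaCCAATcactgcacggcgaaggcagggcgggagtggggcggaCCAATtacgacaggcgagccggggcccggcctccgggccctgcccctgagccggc
Insig1: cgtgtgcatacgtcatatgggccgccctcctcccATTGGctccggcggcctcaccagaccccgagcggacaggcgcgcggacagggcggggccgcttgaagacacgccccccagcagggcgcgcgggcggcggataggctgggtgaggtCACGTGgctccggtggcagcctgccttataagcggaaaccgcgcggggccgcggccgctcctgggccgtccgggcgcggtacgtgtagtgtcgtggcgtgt

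Windows were matched for 23 of the 29 genes, all but Fdft1, Fdps, Sqle, Stard4, Scd1 and Scd2. CCAAT was found in 20 of the 23 (87.0%), against 37.5% of 27025 mouse genes with a window of the same length. The SRE letters were found in 3 of 23 (13%), namely Hmgcs1, Msmo1 and Srebf2, against 4.2% of all genes. CACGTG was found in 5 of 23 (21.7%), namely Hsd17b7, Sc5d, Dhcr7, Insig1 and Scap, against 6.86% of all genes. These matches describe letters and not bound sites.

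The values were log2 intensities after GCRMA, and array medians lay between 3.84 and 3.9. Array profiles correlated at 0.967 to 0.997 over all probe sets. Granule cell transcripts were strong: Gabra6, a GABA receptor subunit of mature granule cells, averaged 13.80 in β4a, 13.82 in β4b, 13.85 in β4e and 13.80 in eGFP cultures. The endothelial marker Pecam1 stayed at 3.58 or lower on every array, and Cdh5 at 2.74 or lower. The cultures were not pure neurons, since the astrocyte gene Gfap averaged 11.21, 11.62 and 11.31 in β4a, β4b and β4e and 10.56 in eGFP cultures, and the myelin gene Mbp was at least 13.94 on each array. Cacnb4 itself had 3 probe sets, and on each of them every variant's arrays overlapped the eGFP arrays. Whether these probe sets lie within the inserted sequences was not examined, so they do not check the labels.

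Against eGFP, β4a cultures showed higher means for 24 of the 28 genes, β4b cultures for 22 and β4e cultures for 24. Over all 10977 genes tested, 56.7%, 59% and 60.6% had higher means in β4a, β4b and β4e. The median log2 difference of the 28 genes was 0.22 in β4a, 0.19 in β4b and 0.10 in β4e, beside 0.03, 0.04 and 0.03 over all genes. The 3 comparisons share the eGFP arrays, so they are not independent of each other.

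No gene of the 28 passed an adjusted p of 0.05 against eGFP in any variant by limma's moderated test, where the background was 0% of 23044 probe sets in each comparison. With replicate number as a block, the count was also 0 of 28, beside 0.013%, 0.013% and 0% of probe sets in β4a, β4b and β4e. At an unadjusted p under 0.05, 5 of 28 were higher in β4a (0.902% of genes), 1 in β4b (1.88% of genes) and 0 in β4e (0.355% of genes), and 0 were lower in any variant (0.401%, 0.437% and 0.0638% of genes). With the block the counts of higher genes were 8 in β4a (7.71% of genes), 5 in β4b (11.9%) and 2 in β4e (4.01%), and those of lower genes were 0 in each (3.93%, 4.53% and 1.14%). In limma's F test over the 4 groups 0 of 28 passed (0% of genes), and the block left both at 0. Unadjusted, 3 of 28 had p under 0.05 (0.446% of genes), or 5 with the block (9.07%). The words higher and lower below therefore give measured means and not tested changes. Each SE printed after ± below is from the fit without the block, also where the p beside it is from the blocked fit.

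The differences were also counted within replicate numbers. All 3 replicates lay above eGFP for 13 of 28 genes in β4a (18.4% of all genes), 15 in β4b (24.3%) and 8 in β4e (18.4%). All 3 lay below it for 0 genes in β4a (14% of all genes), 0 in β4b (14.1%) and 2 in β4e, Mvk and Lss (8.79%). On a second probe set of Mvk and of Lss, all 3 β4e replicates lay above eGFP instead. The arrays of the groups did not overlap, with the variant higher, for 8 of 28 in β4a (2.51% of all genes), 5 in β4b (3.51%) and 1 in β4e (1.64%). With the variant lower they did not overlap for 0 genes in each (1.63%, 2% and 0.683%). Neuronal activity genes, described further on, differed most in replicate 1 in β4a and β4b, so the counts were repeated without it in all 3 variants, a choice made after seeing the data. Then 20 of 28 in β4a, 23 in β4b and 13 in β4e lay above eGFP in both remaining replicates, against 34.6%, 37.3% and 33.5% of all genes. Without replicate 1 the groups did not overlap, variant higher, for 13 of 28 in β4a, 13 in β4b and 8 in β4e, against 16.3%, 19.4% and 14% of all genes. Below eGFP in both remaining replicates lay 4, 2 and 3 of 28, against 25.9%, 26.7% and 22.7% of all genes, and the groups did not overlap with the variant lower for 1 gene in each, against 9.77%, 11.5% and 7.45%.

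**Figure D1:**
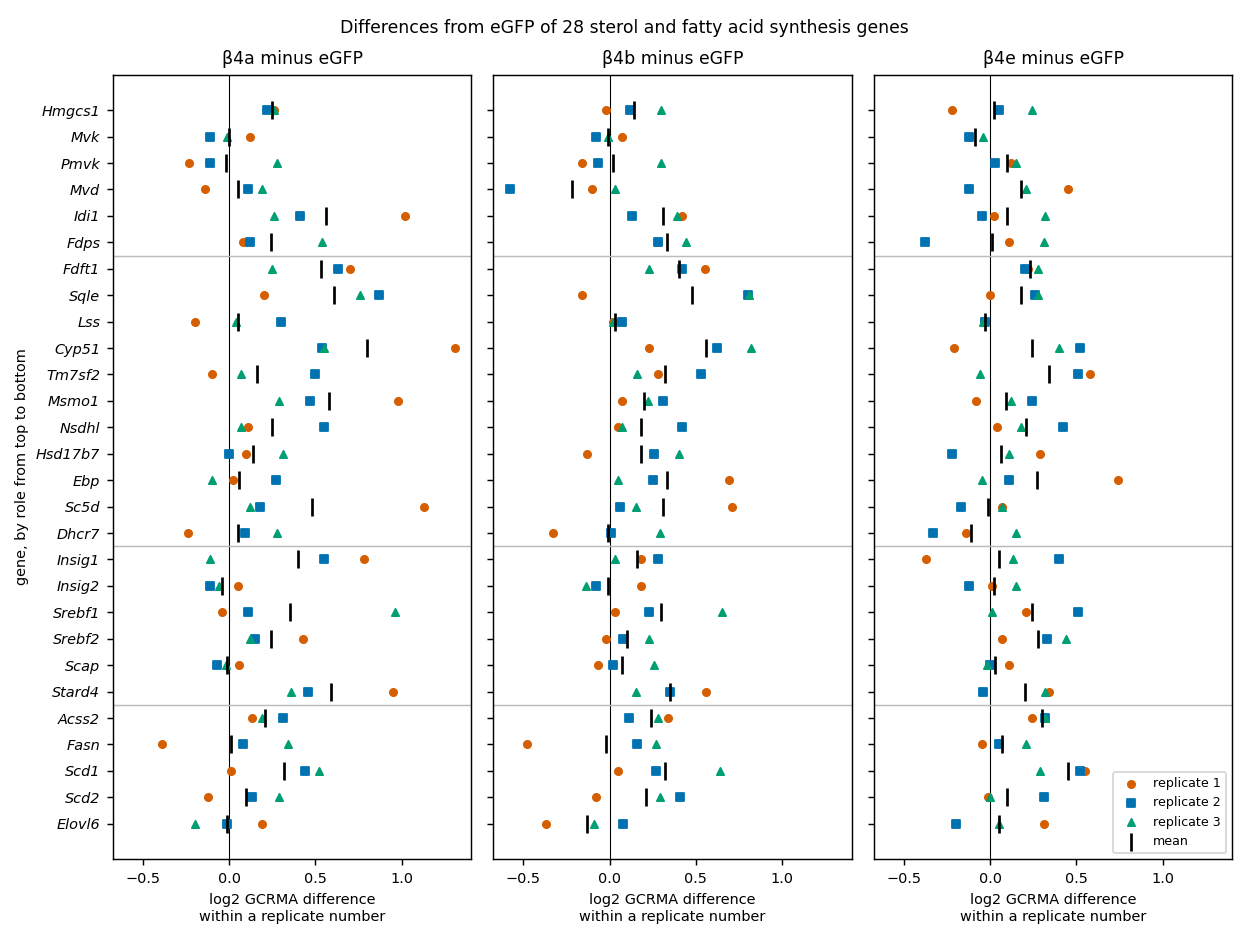
Differences of 28 genes, variant minus eGFP on the log2 scale, for β4a, β4b and β4e from left to right, with genes ordered by role from mevalonate synthesis at the top to fatty acid synthesis at the bottom. Coloured symbols are the differences within each replicate number and black ticks their mean; Cyp51 has the largest mean in β4a (0.80) and replicate 1 of β4a lies far right for Cyp51, Sc5d, Idi1, Msmo1 and Stard4.

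The first steps, from acetyl-CoA to farnesyl diphosphate, had a median difference of 0.15 in β4a, 0.08 in β4b and 0.06 in β4e over 6 genes, with 5, 4 and 5 of 6 higher. Idi1, the isomerase that makes the reactive isoprenoid unit, read 11.22, 10.78 and 10.47 in replicates 1 to 3 of β4a, 10.62, 10.50 and 10.60 in β4b, 10.22, 10.32 and 10.54 in β4e, and 10.20, 10.37 and 10.21 in eGFP. Every β4a and β4b array lay above every eGFP array, while β4e overlapped eGFP. The β4a difference was 0.56 ± 0.18 (log2, SE, n = 3 each, a 1.48-fold difference; limma adjusted p = 0.9999, or 0.221 with the block), and 0.34 without replicate 1.

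Hmgcs1, the synthase that makes HMG-CoA, read 13.33, 13.21 and 13.18 in β4a, 13.05, 13.11 and 13.23 in β4b, 12.85, 13.04 and 13.16 in β4e, and 13.07, 12.99 and 12.92 in eGFP. Its β4a arrays all lay above the eGFP arrays by similar amounts, 0.26, 0.22 and 0.26 within replicates 1 to 3. β4b and β4e overlapped eGFP, and in replicate 1 the β4e array differed from its eGFP partner by -0.22.

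Fdps, which makes farnesyl diphosphate, read 8.0, 7.90 and 8.36 in β4a, 8.20, 8.06 and 8.26 in β4b, 8.03, 7.40 and 8.13 in β4e, and 7.92, 7.78 and 7.82 in eGFP. Only in β4b did all 3 arrays clear the eGFP arrays, by 0.33 ± 0.20 (SE; limma adjusted p = 0.236 with the block). Mvd, the decarboxylase of the same branch, read 5.08, 5.75 and 5.63 in β4a, 5.12, 5.06 and 5.47 in β4b, 5.67, 5.52 and 5.66 in β4e, and 5.22, 5.64 and 5.44 in eGFP. It had the largest negative mean difference of the 28 genes, -0.22 in β4b, with overlapping arrays. A second Mvd probe set differed in β4b by 0.20, with 0.10, 0.05 and 0.46 within replicates 1 to 3, and in β4a by -0.20 where the first gave 0.05. The kinases Mvk and Pmvk differed from eGFP by between -0.09 and 0.10 in the 3 variants. Mvk read 5.24, 5.10 and 5.16 in β4a, 5.18, 5.13 and 5.16 in β4b, 4.99, 5.09 and 5.14 in β4e, and 5.11, 5.21 and 5.17 in eGFP, a flat profile over all 12 arrays.

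The branch from squalene to cholesterol held the largest mean difference in β4a and in β4b, that of Cyp51 (0.80 and 0.56). In β4e the largest was that of the fatty acid gene Scd1 (0.45). Stard4 (0.59) and Idi1 (0.56), outside the branch, were also among the larger differences in β4a. Within the branch, higher means were found for 11 of 11 genes in β4a, 10 in β4b and 8 in β4e. The median differences were 0.25, 0.31 and 0.18. Fdft1, the squalene synthase that commits isoprenoids to sterol, read 11.01, 11.07 and 10.90 in β4a, 10.86, 10.87 and 10.89 in β4b, 10.53, 10.64 and 10.94 in β4e, and 10.31, 10.45 and 10.66 in eGFP. All β4a and β4b arrays were higher than all eGFP arrays, and β4e was higher within each replicate number but overlapped.

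The Fdft1 difference was 0.53 ± 0.14 in β4a (a 1.44-fold difference; limma adjusted p = 0.9999, or 0.173 with the block), 0.40 ± 0.14 in β4b (0.133 with the block) and 0.23 ± 0.14 in β4e (0.892 with the block), each an SE with n = 3. The β4b value was the smallest blocked adjusted p among the 28 genes in the comparisons with eGFP. Fdft1 is the gene of the list that lay above eGFP in all 9 within-replicate differences by at least 0.20.

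Sqle, the epoxidase that acts next, read 9.52, 8.90 and 9.61 in β4a, 9.16, 8.83 and 9.66 in β4b, 9.32, 8.29 and 9.13 in β4e, and 9.32, 8.03 and 8.85 in eGFP. The groups overlapped, and replicate 2 was the lowest array of every group. Within replicates 1 to 3 the differences were 0.20, 0.87 and 0.76 in β4a and -0.16, 0.80 and 0.81 in β4b, so replicate 1 showed the least. Without replicate 1 the mean differences were 0.82 in β4a and 0.80 in β4b, against 0.61 and 0.48 with it. Leaving out single arrays gave 0.26 to 0.91 in β4a and 0.13 to 0.78 in β4b. Both were lowest without the eGFP array of replicate 2 and highest without that of replicate 1. Without the β4b array of replicate 3 the β4b difference was 0.26. Those fits had no block, so an array left out also made the replicate numbers unequal between groups.

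Cyp51, the demethylase of lanosterol, read 10.58, 9.6 and 9.70 in β4a, 9.50, 9.68 and 9.96 in β4b, 9.06, 9.57 and 9.55 in β4e, and 9.27, 9.05 and 9.14 in eGFP. Both β4a and β4b lay above eGFP on every array, whereas β4e lay above it in replicates 2 and 3 and below it in replicate 1. Its difference of 0.80 ± 0.26 in β4a (SE, n = 3 each, a 1.74-fold difference; limma adjusted p = 0.232 with the block) was the largest mean difference of the 28 genes, and the replicate 1 pair alone gave 1.31.

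Msmo1, the oxidase that starts removal of methyl groups from the sterol ring, read 10.78, 10.42 and 10.22 in β4a, 9.87, 10.26 and 10.14 in β4b, 9.72, 10.19 and 10.04 in β4e, and 9.80, 9.95 and 9.92 in eGFP. Only the β4a arrays all cleared the eGFP arrays, by 0.58 ± 0.18 (SE; limma adjusted p = 0.211 with the block). Leaving out replicate 1 gave 0.38 in β4a. Nsdhl, a dehydrogenase of the same steps, read 6.93, 7.08 and 6.86 in β4a, 6.87, 6.96 and 6.85 in β4b, 6.86, 6.96 and 6.96 in β4e, and 6.82, 6.53 and 6.78 in eGFP. It was the one gene of the 28 with no overlap with eGFP in any of the 3 variants, and the eGFP array of replicate 2 was the lowest of all.

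Tm7sf2, a sterol reductase, read 4.28, 4.31 and 4.39 in β4a, 4.67, 4.34 and 4.48 in β4b, 4.97, 4.32 and 4.26 in β4e, and 4.39, 3.81 and 4.32 in eGFP, all dim values. Its 0.34 in β4e came from replicates 1 and 2 (0.58 and 0.51), with -0.06 in replicate 3. Lss, Hsd17b7 and Dhcr7 differed from eGFP by between -0.11 and 0.18 in the 3 variants, each with overlapping arrays. The further probe sets of Hsd17b7 gave larger values, 0.39, 0.29 and 0.25 on one and 0.22, 0.43 and 0.22 on the other, also with overlapping arrays. A second Lss probe set gave 0.06, 0.25 and 0.13. Dhcr7, the reductase of the last step, read 5.50, 4.88 and 5.52 in β4a, 5.41, 4.79 and 5.52 in β4b, 5.60, 4.45 and 5.38 in β4e, and 5.74, 4.78 and 5.23 in eGFP, and replicate 2 was the lowest array of every group.

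Sc5d, the desaturase before the last step, read 10.22, 10.02 and 10.02 in β4a, 9.80, 9.91 and 10.05 in β4b, 9.16, 9.67 and 9.97 in β4e, and 9.09, 9.84 and 9.90 in eGFP. The β4a arrays did not overlap eGFP, with 1.13 of difference in replicate 1 against 0.18 and 0.12 in the other two. A second Sc5d probe set did not share this: it averaged 9.70 ± 0.43 in β4a and 9.78 ± 0.24 in eGFP (SD, n = 3 each), a difference of -0.08. The Sc5d value therefore depends on which probe set is read.

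**Figure D2:**
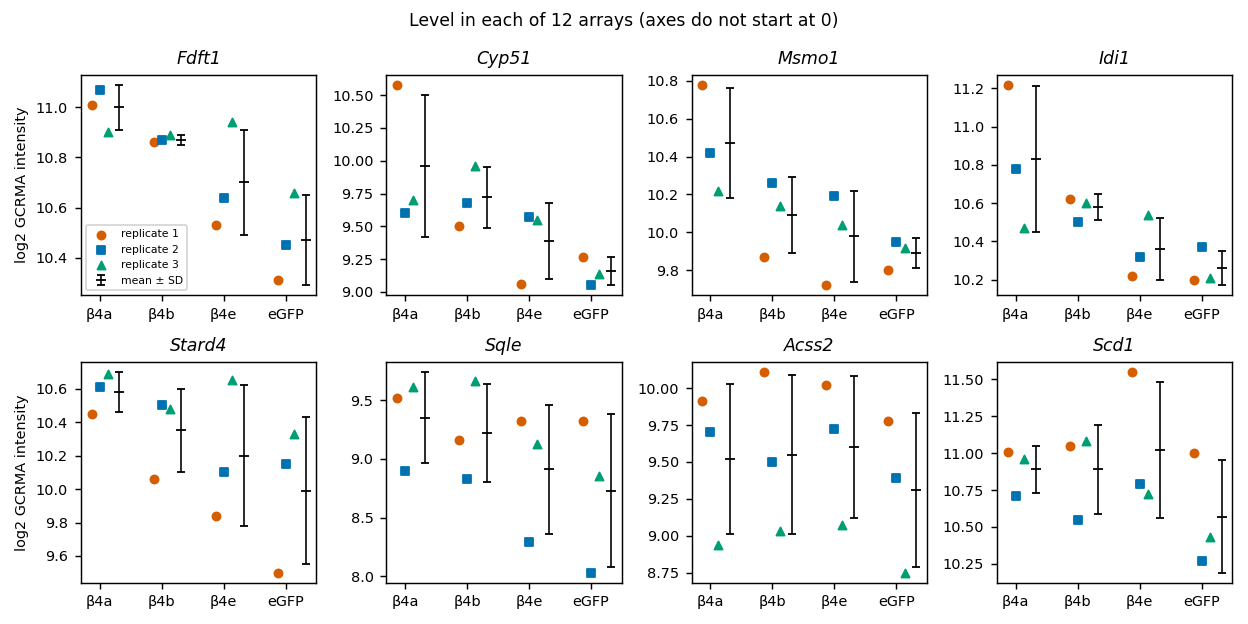
Log2 GCRMA intensity of 8 genes on the 12 arrays, with β4a, β4b, β4e and eGFP from left to right in each panel, symbols for replicates 1 to 3, and bars for mean ± SD (n = 3); the axes do not start at 0. Fdft1, Cyp51 and Idi1 lie above eGFP on all β4a and β4b arrays, while Sqle is lowest in replicate 2 and Acss2 in replicate 3 in every group.

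Among the regulators, 4 of 6 genes were higher in β4a, 5 in β4b and 6 in β4e, with median differences of 0.29, 0.13 and 0.13. Stard4, a carrier of cholesterol between membranes and an SREBP target, read 10.45, 10.61 and 10.69 in β4a, 10.06, 10.50 and 10.48 in β4b, 9.84, 10.10 and 10.65 in β4e, and 9.50, 10.15 and 10.33 in eGFP. The β4a arrays cleared eGFP, and β4b and β4e overlapped it. The differences were 0.59 ± 0.26 in β4a (SE, 1.5-fold; limma adjusted p = 0.173 with the block), 0.35 ± 0.26 in β4b (0.213) and 0.20 ± 0.26 in β4e (0.91). With the block the SE was 0.14 in each variant.

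Insig1, which retains SCAP and is itself an SREBP target, read 10.91, 10.06 and 9.93 in β4a, 10.30, 9.79 and 10.07 in β4b, 9.75, 9.91 and 10.17 in β4e, and 10.13, 9.51 and 10.04 in eGFP. Within replicate 1 it was 0.78 above eGFP in β4a and differed from it by -0.37 in β4e, and all groups overlapped. Its relative Insig2 read between 10.20 and 10.76 over the 12 arrays and differed from eGFP by -0.04, -0.01 and 0.02 in β4a, β4b and β4e. Scap, the escort of SREBP, differed by -0.01, 0.07 and 0.03.

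Srebf2 read 6.26, 5.79 and 6.04 in β4a, 5.80, 5.71 and 6.15 in β4b, 5.89, 5.96 and 6.36 in β4e, and 5.83, 5.64 and 5.92 in eGFP, with differences of 0.24, 0.10 and 0.28. Srebf1 read 5.70, 4.97 and 5.84 in β4a, 5.77, 5.08 and 5.53 in β4b, 5.95, 5.36 and 4.89 in β4e, and 5.74, 4.85 and 4.88 in eGFP. The Srebf1 difference of 0.35 in β4a rested on replicate 3 (0.96), with -0.04 and 0.11 in replicates 1 and 2. Both overlapped eGFP in all 3 variants.

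Of the 5 fatty acid genes, 4 had higher means in β4a, 3 in β4b and 5 in β4e, with median differences of 0.10, 0.21 and 0.10. Acss2, which makes acetyl-CoA from acetate in the cytosol, read 9.91, 9.70 and 8.94 in β4a, 10.11, 9.50 and 9.03 in β4b, 10.02, 9.72 and 9.07 in β4e, and 9.78, 9.39 and 8.75 in eGFP. Each variant was higher than eGFP within each replicate number, by 0.11 to 0.34, while the means of the 3 replicate numbers spanned 1.0. The β4e difference was 0.30 with an SE of 0.39, or 0.10 with the block (limma adjusted p = 0.878 with the block), and the β4b difference was 0.24 (0.222 with the block). Over single arrays left out, the β4e difference ranged from 0.02 without the eGFP array of replicate 3 to 0.56 without the β4e array of replicate 3, and it was 0.09 without the β4e array of replicate 1. Those fits had no block, so an array left out also made the replicate numbers unequal between groups. Within replicates 1 to 3 the β4e differences were 0.24, 0.32 and 0.32.

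Scd1, a desaturase that makes oleate, read 11.01, 10.71 and 10.96 in β4a, 11.05, 10.55 and 11.08 in β4b, 11.55, 10.79 and 10.72 in β4e, and 11.00, 10.27 and 10.43 in eGFP. It was above eGFP in all 9 within-replicate differences, from 0.01 to 0.64, with overlapping arrays. Scd2, the other desaturase of the list, read 13.36, 13.01 and 13.47 in β4a, 13.39, 13.29 and 13.47 in β4b, 13.46, 13.19 and 13.17 in β4e, and 13.48, 12.87 and 13.18 in eGFP. These arrays overlapped, with mean differences of 0.10 in β4a and 0.21 in β4b. A second, dimmer Scd2 probe set differed more, by 0.67 in β4a (0.14, 0.67 and 1.21 within replicates 1 to 3; limma adjusted p = 0.221 with the block), 0.70 in β4b (0.30, 1.0 and 0.81; 0.135) and 0.24 in β4e. There all β4a and β4b arrays lay above all eGFP arrays. Fasn, the fatty acid synthase, read 8.78, 8.87 and 9.33 in β4a, 8.68, 8.95 and 9.26 in β4b, 9.12, 8.84 and 9.20 in β4e, and 9.17, 8.79 and 8.99 in eGFP. Fasn means differed from eGFP by 0.01, -0.02 and 0.07, with limma's confidence intervals of -0.44 to 0.46, -0.47 to 0.43 and -0.38 to 0.52. With the block the intervals were -0.33 to 0.35, -0.36 to 0.32 and -0.27 to 0.41. The elongase Elovl6 differed by -0.01, -0.13 and 0.05.

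The design also asks whether the splice variants differ from each other. By limma's test 0 of 28 genes passed in any pair, with and without the block, where 0% of probe sets did in each pair. In β4a against β4e, 17 of 28 genes had higher means (48.5% of all genes), the groups were apart with β4a higher for 4 of 28 (0.966% of all genes) and lower for 0 (1.45%), and 2 had an unadjusted p under 0.05 (0.182% of all genes), or 6 with the block (2.09%). Lower at that p were 0 (0.255%), also with the block (2.76%). The 4 that were apart were Hmgcs1, Cyp51, Msmo1 and Sc5d, each by a narrow margin. Their lowest β4a arrays read 13.18, 9.6, 10.22 and 10.02, beside highest β4e arrays of 13.16, 9.57, 10.19 and 9.97. Cyp51 differed by 1.53, 0.03 and 0.15 within replicates 1 to 3. On a second Cyp51 probe set the groups overlapped (lowest β4a array 7.87, highest β4e array 7.88). The groups stayed apart on a further Hmgcs1 probe set (12.87 beside 12.83) and overlapped on its others. Msmo1 differed by 0.49 ± 0.18, Idi1 by 0.47 ± 0.18, Sc5d by 0.49 ± 0.25 and Stard4 by 0.38 ± 0.26 (SE, n = 3 each; in limma's blocked test the adjusted p was 0.759 for all 4). With the block the SEs were 0.17, 0.17, 0.19 and 0.14 in that order. For these genes the replicate 1 pair gave 1.06, 1.0, 1.06 and 0.61, and the replicate 3 pair 0.18, -0.07, 0.05 and 0.04. Without replicate 1 the differences were 0.20 for Msmo1, 0.20 for Idi1, 0.20 for Sc5d and 0.27 for Stard4. A second Sc5d probe set averaged 9.70 in β4a and 9.74 in β4e, so the Sc5d difference was not seen there.

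In β4a against β4b, 19 of 28 genes had higher means (43.4% of all genes), 1 gene, Fdft1, had groups apart with β4a higher (0.884% of all genes), and 0 had them apart with β4a lower (1.71%). At an unadjusted p under 0.05, 0 were higher (0.0364%) and 0 lower (0.21%), or with the block 1 higher, Msmo1 (0.765%), and 0 lower (1.81%). For Fdft1 the lowest β4a array read 10.90 and the highest β4b array 10.89. A second Fdft1 probe set overlapped, with 9.51, 9.39 and 9.27 in β4a and 8.99, 9.20 and 9.36 in β4b. Msmo1 differed by 0.38, Mvd by 0.27, Stard4 by 0.23 and Ebp, the sterol isomerase, by -0.27 (in limma's blocked test the adjusted p was 0.997 for all 4). The second Mvd probe set went the other way: it read 4.54, 4.67 and 4.56 in β4a and 5.04, 5.02 and 4.91 in β4b, with the groups apart and a difference of -0.40 (limma adjusted p = 0.997 with the block). The Mvd direction therefore depends on the probe set. Ebp read 9.87, 9.38 and 9.78 in β4a, 10.55, 9.36 and 9.92 in β4b, 10.60, 9.23 and 9.83 in β4e, and 9.86, 9.11 and 9.88 in eGFP. Its β4b and β4e arrays of replicate 1 were the highest of the 12. Without replicate 1 the Msmo1 difference was 0.12.

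In β4b against β4e, 18 of 28 genes had higher means (53.7% of all genes), and 1 gene, Mvd, had groups apart with β4b lower (1.39% of all genes), while 0 had them apart with β4b higher (1.38%). At an unadjusted p under 0.05, 0 were higher (0.191%) and 0 lower (0.182%), or with the block 1 higher, Fdps (3.22%), and 1 lower, Mvd (2.16%). The differences were -0.40 ± 0.20 for Mvd (limma adjusted p = 0.69 with the block), 0.32 ± 0.20 for Fdps (0.7), 0.30 ± 0.38 for Sqle (0.759) and 0.32 ± 0.25 for Sc5d (0.769), each with n = 3. With the block the SEs were 0.16, 0.14, 0.18 and 0.19 in that order. A second Mvd probe set averaged 4.99 in β4b and 4.98 in β4e, so the Mvd difference was not seen there. Nor was the Sc5d difference seen on a second Sc5d probe set, which averaged 9.65 in β4b and 9.74 in β4e. Without replicate 1 the Sc5d difference was 0.16 and that of Sqle 0.54.

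The mean of the 3 variants against eGFP had a median of 0.21 over the 28 genes, beside 0 of 28 passing by limma (0% of probe sets, or 0.0217% with the block). All 3 replicate differences were above 0 for 17 of 28 genes (22.1% of all genes). Fdft1 had the smallest blocked p, with a difference of 0.39 ± 0.11 (SE; limma adjusted p = 0.136 with the block), followed by Stard4 at 0.38 (0.166) and Acss2 at 0.25 (0.177). Nsdhl was the gene for which all 9 variant arrays lay above all 3 eGFP arrays, which held for 0.374% of all genes.

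Of the other 34 probe sets of these genes, 24 were above the filter on dim values. Their difference from eGFP had the sign of the probe set described above for 20 of 24 in β4a, 19 in β4b and 19 in β4e, and the other sign for 4, 5 and 5. Those with the other sign belonged to Mvd, Sc5d and Insig2 in β4a, to these and Mvk in β4b, and to Mvk, Lss, Msmo1 and Elovl6 in β4e. The second Mvk probe set gave 0.19, 0.26 and 0.20 in β4a, β4b and β4e. Of the further Insig2 probe sets, one gave 0.38, 0.39 and 0.14 and the other between 0.04 and 0.06. The second Fdft1 probe set gave 0.48, 0.27 and 0.28 in β4a, β4b and β4e, and that of Idi1 0.60, 0.31 and 0.06. On the second Fdft1 probe set β4a cleared the eGFP arrays, but β4b overlapped them (lowest β4b array 8.99, highest eGFP array 9.10). On that of Idi1 both β4a and β4b overlapped eGFP. Their lowest arrays read 9.98 and 10.01, beside a highest eGFP array of 10.07. A second Cyp51 probe set read 9.91, 7.87 and 7.87 in β4a and 7.91, 7.33 and 7.58 in eGFP, with 7.34, 7.65 and 7.88 in β4e. There the β4a array of replicate 1 stood far above the other 11. Both β4a and β4b overlapped eGFP on that probe set, with a lowest β4b array of 7.77.

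Markers of other cells and neuronal activity genes also varied over the arrays. The activity list (Fos, Npas4, Bdnf and others, genes that neurons switch on when they fire) had 19 of 20 genes tested and a median difference in replicates 1 to 3 of 3.79, 2.13 and -0.06 in β4a, 2.69, 0.93 and -0.33 in β4b, and -0.13, 0.56 and -0.27 in β4e. Its mean log2 level over 20 genes was 10.08, 9.95 and 6.98 in β4a, 8.90, 8.74 and 6.91 in β4b, 5.75, 8.40 and 6.96 in β4e, and 6.11, 8.01 and 7.2 in eGFP. The β4e array of replicate 1 was the lowest for this list and the β4a array of replicate 1 the highest. Some of the 28 genes, such as Cyp51, Idi1, Msmo1 and Insig1, also read highest on that β4a array. Others, such as Fdft1, Sqle, Stard4 and Fasn, read highest elsewhere. The 28 genes had median differences in replicates 1 to 3 of 0.11, 0.20 and 0.25 in β4a. In β4b these were 0.05, 0.19 and 0.25, and in β4e 0.07, 0.05 and 0.15. In replicate 3 the activity list lay slightly below eGFP in all 3 variants.

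The astrocyte and Bergmann glia list (17 of 18 genes with a probe set) had median differences in replicates 1 to 3 of -0.29, 0.40 and 0.84 in β4a, -0.28, 0.57 and 1.28 in β4b, and -0.07, 0.80 and 0.31 in β4e. Its summed level, in log2, ranged from 14.63 to 15.40 in β4a, 14.79 to 15.69 in β4b, 14.85 to 14.98 in β4e and 14.21 to 15.04 in eGFP. Of its 17 genes, 17, 16 and 16 had higher means in β4a, β4b and β4e (56.7%, 59% and 60.6% of all genes). The microglial list had 11 of 14 genes tested, with median differences in replicates 1 to 3 of -0.60, 0.06 and 0.32 in β4a, -0.42, 0.45 and 0.39 in β4b, and -0.32, 0.57 and 0.12 in β4e. The oligodendrocyte list had 16 of 17, with 0.07, 0.09 and 0.03 in β4a, 0.10, 0.27 and 0.15 in β4b, and 0.05, 0.21 and -0.08 in β4e. The fibroblast list (9 of 13) had -0.09, -0.16 and 0.25 in β4a, 0.04, -0.03 and 0.13 in β4b, and -0.02, 0.20 and -0.02 in β4e. The list of Purkinje cells and interneurons (8 of 10) had 0.22, -0.45 and -0.07 in β4a, 0.20, -0.17 and -0.42 in β4b, and 0.39, -0.38 and -0.07 in β4e, above eGFP in replicate 1 of all 3 variants and below it in replicates 2 and 3. The granule cell list (14 of 15) had median differences of -0.11 in β4a, -0.08 in β4b and -0.01 in β4e over the 3 replicates. Within replicates 1 to 3 they were -0.13, -0.05 and -0.11, then -0.02, -0.12 and -0.11, then 0.20, -0.06 and -0.06. Lower means were found for 12, 10 and 7 of 14 genes, beside 4754, 4496 and 4327 of all 10977 genes. All 3 replicates lay below eGFP for 8, 5 and 3 of 14 (14%, 14.1% and 8.79% of all genes). In such mixed cultures more cells of a type and more RNA per cell cannot be told apart. The part of these lists in the differences of the sterol genes was not tested. The Gapdh difference between 3′ and 5′ probe sets, a measure of RNA integrity, was 0.22, 0.09, 0.40 and 0.39 in replicate 1 of β4a, β4b, β4e and eGFP, and between -0.05 and 0.12 on the other arrays. The same measure for Actb did not set replicate 1 apart, with 0.82 to 1.09 there and 0.85 to 1.02 on the other arrays.

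**Figure D3:**
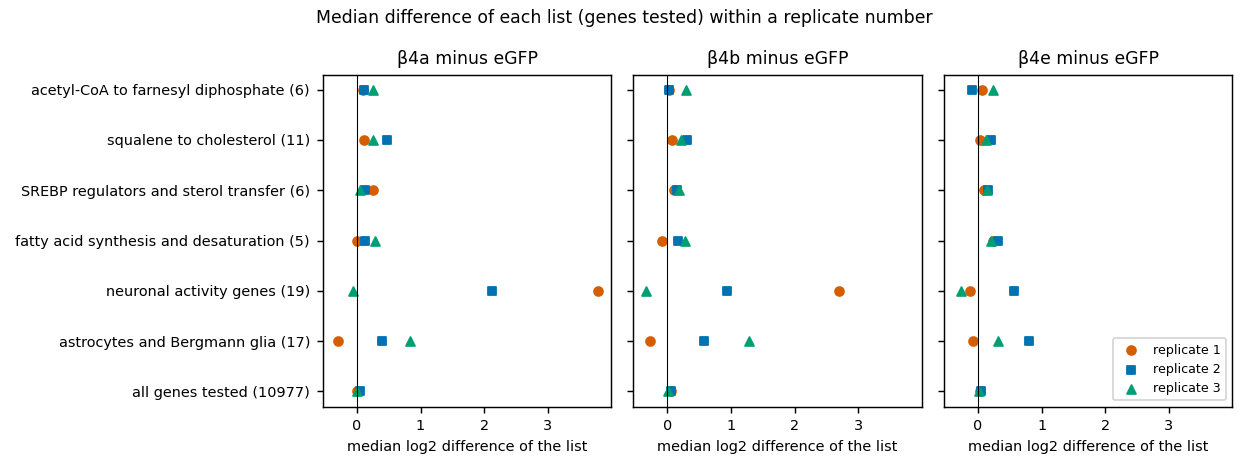
Median log2 difference from eGFP within replicates 1 to 3 for the 4 roles of the sterol and fatty acid genes, for neuronal activity genes, for astrocyte markers and for all genes tested (number of genes in brackets), with β4a, β4b and β4e from left to right. The activity genes reach 3.79 in replicate 1 of β4a and 2.69 in replicate 1 of β4b, while the medians of the 4 roles are at most 0.47.

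Other genes of lipid metabolism were read from 4 further lists. None of their genes passed limma's test in any comparison with eGFP, up or down. Of 27 further fatty acid and isoprenoid genes tested, 20 were higher in β4a, 23 in β4b and 22 in β4e, with medians of 0.19, 0.19 and 0.11. Mid1ip1, a partner of acetyl-CoA carboxylase, differed by 0.31, 0.43 and 0.27, and Slc25a1, the mitochondrial citrate carrier, by 0.40, 0.36 and 0.31. Both were above eGFP in all 9 within-replicate differences. They were named for the smallest blocked p of the list for the mean of the variants, a choice that favours such differences.

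Among 8 genes of SREBP processing and sterol-dependent degradation, 5, 6 and 7 were higher, with medians of 0.12, 0.16 and 0.06. Paqr3, which holds SCAP and SREBP at the Golgi, differed by 0.37, 0.35 and 0.25, and Erlin2, an endoplasmic reticulum protein of sterol-dependent degradation, by 0.16, 0.50 and 0.11. Among 11 genes of the liver X receptors (LXR) and sterol export or turnover, 5, 6 and 7 were higher, with medians of -0.01, 0.12 and 0.06. Mylip, a ubiquitin ligase and LXR target, read 6.0, 4.92 and 5.65 in β4a, 5.55, 5.24 and 5.93 in β4b, 5.47, 5.18 and 5.35 in β4e, and 5.25, 4.68 and 4.51 in eGFP. It was above eGFP in every replicate, by 0.71, 0.76 and 0.52 on average. Nceh1, a cholesterol ester hydrolase, differed by 0.36, 0.64 and 0.35. Of 12 genes of sterol uptake and trafficking, 7, 5 and 7 were higher, with medians of 0.05, -0.03 and 0.06 and ranges of -0.50 to 0.19, -0.46 to 0.36 and -0.37 to 0.35. Osbpl2, an oxysterol-binding protein relative, differed by 0.10, 0.30 and 0.30, and Stard3, an endosomal sterol carrier, by 0.10, 0.31 and 0.35. These pairs are the genes of each list with the smallest blocked p for the mean of the variants. The lowest means, chosen after their values were seen, were those of the lipoprotein receptor Lrp8 in the uptake list, at -0.50, -0.46 and -0.37, and of Cyp46a1, the brain cholesterol 24-hydroxylase, in the LXR list, at -0.31, -0.53 and -0.30, both overlapping eGFP.

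Some of these genes differed among replicate numbers, which all 4 groups share. In limma's F test with group in the model, 11 of 28 genes differed among replicate numbers at an adjusted p under 0.05, against 62.4% of 10977 genes. The range of replicate means had a median of 0.35 in the 28 genes and 0.43 over all genes. Acss2 averaged 9.95, 9.58 and 8.95 in replicates 1 to 3 over the 4 groups (limma adjusted p = 3.96e-05), with replicate 1 the highest and replicate 3 the lowest array of every group. Hsd17b7, a ketosterol reductase, averaged 7.57, 6.81 and 6.60 (limma adjusted p = 0.000501), with arrays of 7.61, 6.80 and 6.71 in β4a, 7.38, 7.06 and 6.79 in β4b, 7.80, 6.58 and 6.50 in β4e, and 7.51, 6.80 and 6.39 in eGFP.

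Dhcr7 averaged 5.56, 4.72 and 5.41 (limma adjusted p = 0.000558) and Ebp 10.22, 9.27 and 9.85 (limma adjusted p = 0.0014). Both were lowest in replicate 2 in every group, as were Sqle and Fdps. Stard4 averaged 9.96, 10.34 and 10.54 and was lowest in replicate 1 in every group. The smallest F values belonged to Nsdhl, Mvk, Hmgcs1 and Cyp51, whose replicate means spanned 0.02, 0.03, 0.05 and 0.13. Lowest in 1 replicate number in all 4 groups were 1 gene in replicate 1, 4 in replicate 2 and 3 in replicate 3, against 8.41%, 17.3% and 14.9% of all genes.

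**Figure D4:**
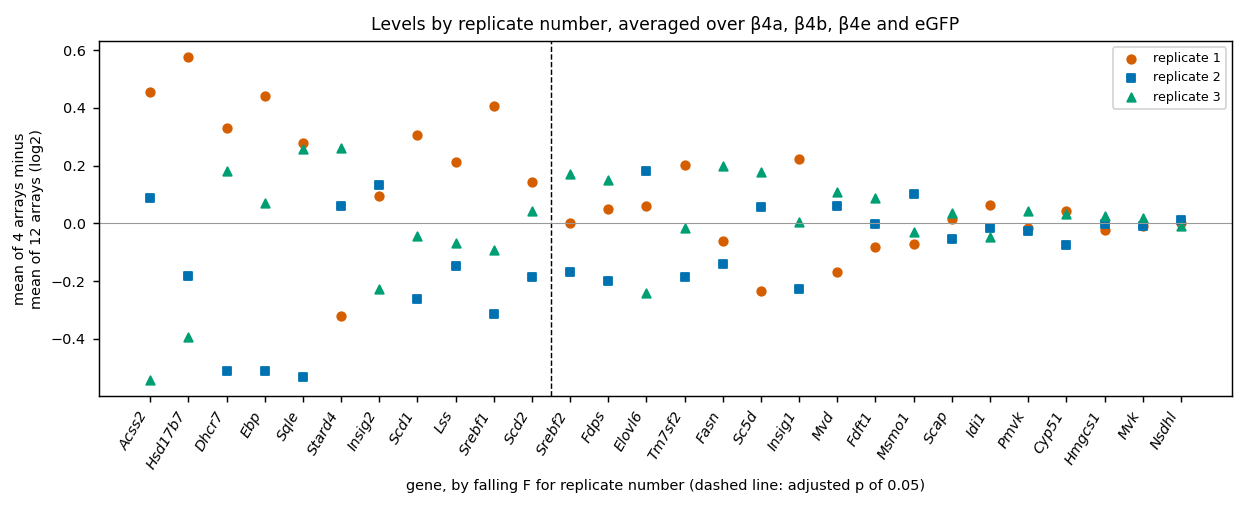
Mean of the 4 arrays of each replicate number minus the mean of all 12 arrays (log2) for 28 genes, ordered by the F value for replicate number from left to right. The 11 genes left of the dashed line passed an adjusted p of 0.05; Acss2, Hsd17b7, Dhcr7, Ebp and Sqle spread widest, and Nsdhl, Mvk and Hmgcs1 lie near 0.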

How the data were processed

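Expression was measured on 12 Affymetrix mouse arrays, 3 each for β4a, β4b, β4e and eGFP, grouped by their titles. The deposited values are log2 intensities that the authors made with GCRMA (version not given in the sources used here), per the submitters' processing notes. They ran from 1.27 to 15.0 and were used as deposited. RNA was extracted with Trizol and 500 ng per sample were labelled, per the labels' protocols. The number of arrays limits the precision.

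Of 45101 probe sets, 64 controls were left out. The annotation gave 1 symbol to 34945, several to 932 and none to 9160. Probe sets above 4 (log2) in at least 3 of 12 arrays were tested (23044), and 1 probe set per gene gave 10977 genes for counts. All arrays entered 1 linear model of the 4 groups, fitted by lmFit and moderated by eBayes (limma 3.58.1, R 4.3.3), which left 8 residual degrees of freedom; p-values are two-sided, with the Benjamini-Hochberg adjustment taken across the 23044 probe sets and a threshold of 0.05. The fit was tested on simulated data.

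An alternative put the replicate number into the model as a block, leaving 6 degrees of freedom. Arrays that share a number deviated together: the 18 pairs with the same number correlated at 0.699 to 0.884 in their deviations from group means, other pairs at -0.741 to 0.146. Other alternatives were array and replicate leave-outs, the filter, normalization, variance model, groups in the fit and mean over probe sets. Array values were given for the 5 genes with the smallest blocked p per variant, 4 per pair of variants, 4 with the largest and 4 with the smallest F for replicate number, and 10 preset genes; further lists named 2 genes each. The members, lists and rules were chosen with earlier results of these data known. Promoters are from RefSeq, GRCm38.p6.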

Additional observations from a re-analysis of the deposited data

Results flagged for a closer look

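Lss, the cyclase that makes lanosterol, was picked out because every β4b array lay above its eGFP partner (0.02, 0.07 and 0.02 within replicates 1 to 3) and every β4e array below it (-0.03, -0.03 and -0.04). By that criterion the difference of 0.07 was not tested. The direct comparison of β4b with β4e gave 0.07 ± 0.18 (log2, SE; limma unadjusted p = 0.72), and the β4b and β4e arrays overlapped. A second Lss probe set read 6.09, 5.85 and 5.64 in β4e and 5.83, 5.74 and 5.63 in eGFP. There every β4e array lay above its eGFP partner, so the Lss direction in β4e depends on the probe set.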

How the results depend on the processing

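No gene of the 28 passed in any group comparison under any alternative run. With the replicate block the medians of the 28 genes stayed at 0.22 in β4a, 0.19 in β4b and 0.10 in β4e, the count of genes past the threshold stayed at 0, and the block changed no call. Leaving out 1 array at a time gave medians of 0.15 to 0.28 in β4a, 0.11 to 0.24 in β4b, 0.07 to 0.19 in β4e and 0.10 to 0.24 for the mean of the variants, all against eGFP, and -0.02 to 0.10 for β4a against β4b, -0.02 to 0.14 for β4a against β4e and 0.00 to 0.11 for β4b against β4e. Without β4a replicate 1 the first of these pairs was at -0.02, and without β4e replicate 2 the second was at -0.02. The count differing among replicate numbers was 9 to 15 over the arrays left out, with 15 without β4a replicate 1. Of single genes, 5 alternatives turned the sign and 696 did not: Acss2 in β4b against eGFP ranged from -0.04 to 0.50, with -0.04 without eGFP replicate 3 or without β4b replicate 1, Ebp in β4a against β4b ranged from -0.56 to 0.04, with 0.04 without β4b replicate 1, Sqle in β4b against β4e ranged from -0.01 to 0.54, with -0.01 without β4e replicate 2, and Mvd in β4a against β4b was -0.06 with the mean over all its probe sets. The fits with 1 array left out had no block, so their replicate numbers were unequal between groups. For Acss2 in β4b the differences from eGFP within replicates 1 to 3 were 0.34, 0.11 and 0.28. The cause of the turned signs was not tested. Fits without a replicate number with the block, and counts without replicate 1, were chosen after seeing the data. With 3 arrays a group, Fasn differences within the intervals given, which were narrower with the block, could not be resolved.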
